A study of Rattus norvegicus with 13 samples.

Results

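The windows described here are the meiotic double-strand break (DSB) hotspots in the interior of rat chromosomes 12 and 20. These start 10 Mb or more from the first base of the chromosome and end more than 10 Mb below the largest window end. Of 96640 windows in the deposited table, 3055 met this rule, 1465 on chromosome 12 and 1590 on chromosome 20. Both chromosomes were picked by measured values, namely their many hotspots in the Prdm9 knockout, so that the knockout density below is a description and not a finding. The same interior part of the other 18 autosomes held 73816 windows and served for comparison.

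During meiosis, SPO11 breaks the DNA, the ends are resected to single strands, and the recombinase DMC1 coats these strands and takes part in the search for the homologous chromosome. PRDM9 binds DNA through a zinc-finger array and trimethylates histone H3 at lysine 4, and in mice and humans the breaks are made at the sites it marks. In mice without PRDM9, breaks form at sites that carry this mark for other reasons, many of them promoters. Chromatin immunoprecipitation with an antibody to DMC1, followed by sequencing of single-stranded DNA (SSDS), maps these breaks.

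The table covers 5 DMC1 SSDS libraries of adult rat testis, with 1 library per condition, among 13 samples in the series. Wild-type SHR, KO/wt and KO/KO came from strain SHR/OlaIpcv with genotypes Prdm9+/+, Prdm9+/- and Prdm9-/-, and the remaining libraries came from wild-type WKY and wild-type BN/RIJHsd (BN) rats. The Prdm9 allele of SHR is also that of WKY, whereas the BN allele differs, so that these libraries ask where breaks form under either allele, with a single functional copy, and with none. The KO/KO male was homozygous for the deletion KO39 and was compared with its wild-type littermate, whereas the number of animals behind the other libraries and the deletion carried by KO/wt are not given in the sources used here. Every library reflects all break-bearing germ cells of a testis, and fewer such cells and fewer breaks per cell cannot be told apart in it.

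KO39 is shown next because its lesion is what separates KO/KO from its littermate. Both lines below are stretches of Prdm9 cDNA, 5′ to 3′, from the supplementary sequences of the study, and the capitals mark the 29 bases that the KO39 cDNA lacks. The genomic deletion is longer and also removes part of an intron, so the lines show its effect on the transcript. Because neighbouring bases repeat, the same cDNA difference can be written at 3 placements, of which the rightmost is marked. The length lost from the cDNA is not a multiple of 3, which shifts the reading frame.
SHR wild-type: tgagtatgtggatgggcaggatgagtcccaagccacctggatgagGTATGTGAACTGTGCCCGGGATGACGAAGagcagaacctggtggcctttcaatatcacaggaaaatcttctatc
KO39: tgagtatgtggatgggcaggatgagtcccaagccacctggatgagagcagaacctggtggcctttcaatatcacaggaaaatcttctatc

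For each window and library the table gives a strength, a score whose scale is not stated, together with a flag for whether a hotspot was called. Of the 96640 windows, 96639 measured 3000 bp, and positions are those of the rn5 assembly. Strengths were scaled to the median strength of the same library's called hotspots in the interior of the other 18 autosomes, so that 1 stands for that median. Intervals in parentheses are 95% intervals of counts, shares or medians over hotspots. They cover counting error only, treat hotspots as independent, and say nothing of the spread between animals, for which no replicate exists.

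At each limit, hotspots lay close on either side. On chromosome 12, the last window outside the first limit, chr12:9978971-9981971, was called in BN (strength 47), and the next window inside, chr12:10000130-10003130, was called in wild-type SHR (133), KO/wt (356) and WKY (346). At the other limit of chromosome 12, a KO/KO hotspot of strength 30 at chr12:44403618-44406618 lay inside and a WKY hotspot of strength 124 at chr12:44455708-44458708 lay outside. On chromosome 20, KO/KO hotspots of strength 19 and 17 lay just outside and just inside the first limit, at chr20:9995827-9998827 and chr20:10005062-10008062. WKY hotspots of strength 126 and 358 lay just inside and just outside its last limit, at chr20:47766519-47769519 and chr20:47780335-47783335.

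KO/KO hotspots were the largest class of windows in the interiors of chromosomes 12 and 20. KO/KO called 1595 of the 3055 windows, or 52.2%, against 38.2% of all interior autosomal windows. Wild-type SHR called 493, or 16.1%, against 22%, and KO/wt called 496, or 16.2%, against 21.5%. WKY called 926, or 30.3%, against 38.5%, and BN called 475, or 15.5%, against 21.3%. The shares of the libraries are tied to each other, since each window is listed for at least 1 call and many KO/KO windows lower the share of every other library. Densities per Mb, which do not depend on the other libraries, are therefore given next.

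Outside the knockout, no library had more hotspots per Mb in the pair than in the other autosomes by more than counting error. The interiors measured 34.45 Mb on chromosome 12 and 37.77 Mb on chromosome 20. KO/KO had 21.5 hotspots per Mb on chromosome 12 and 22.6 on chromosome 20, against 12.2 in the interior of the other 18 autosomes, a ratio of 1.81 for the pair. These were the 2 highest densities of the 20 autosomes, followed by chromosome 10 with 17.5, and chromosome 4 had the lowest with 8.44, an order below the pair that changes with the length used, as given next. WKY had 12.8 hotspots per Mb in the pair against 12.6 elsewhere, a ratio of 1.02 (0.950 to 1.08). KO/wt had 6.87 against 7.06, a ratio of 0.973 (0.888 to 1.06). This count includes sites also called in KO/KO, whose number depends on the density that picked the pair. KO/wt hotspots not called in KO/KO numbered 5.69 per Mb against 6.47, a ratio of 0.880 (0.796 to 0.971). That split rests on the KO/KO calls as well.

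Over the pair, the ratios of wild-type SHR and BN included 1, and BN was low on chromosome 20 alone. Wild-type SHR had 6.71 hotspots per Mb on chromosome 12 and 6.94 on chromosome 20 against 7.22 elsewhere, a ratio of 0.946 (0.863 to 1.03). BN had 7.40 on chromosome 12 and 5.82 on chromosome 20 against 7.01, and its ratio was 1.06 (0.930 to 1.20) for the former, 0.831 (0.725 to 0.950) for the latter and 0.939 (0.855 to 1.03) for both. The lengths used here include stretches in which the table lists no window. The longest measured 65.2 Mb on chromosome 4, 20.1 Mb on chromosome 2, 11.3 Mb on chromosome 19 and 10.1 Mb on chromosome 6, whereas none exceeded 1.12 Mb on chromosome 12 or 0.371 Mb on chromosome 20. Per Mb of 1-Mb bins that hold at least 1 window, the ratios were 1.73 for KO/KO, 0.904 (0.825 to 0.989) for wild-type SHR, 0.931 (0.849 to 1.02) for KO/wt, 0.971 (0.909 to 1.04) for WKY and 0.898 (0.818 to 0.984) for BN. On this scale, wild-type SHR and BN were below the other autosomes by more than counting error. In KO/KO, chromosome 19 then followed the pair with 18.1 per occupied Mb, and chromosome 1 was lowest with 10.5.

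The ratio between the libraries set both chromosomes apart in the same way. Chromosome 12 had 3.21 KO/KO hotspots for each wild-type SHR hotspot and chromosome 20 had 3.26. The other 18 autosomes ranged from 1.46 on chromosome 1 to 2.24 on chromosome 17. Since this ratio uses the KO/KO counts that picked the pair, it is a description only.

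**Figure D1:**
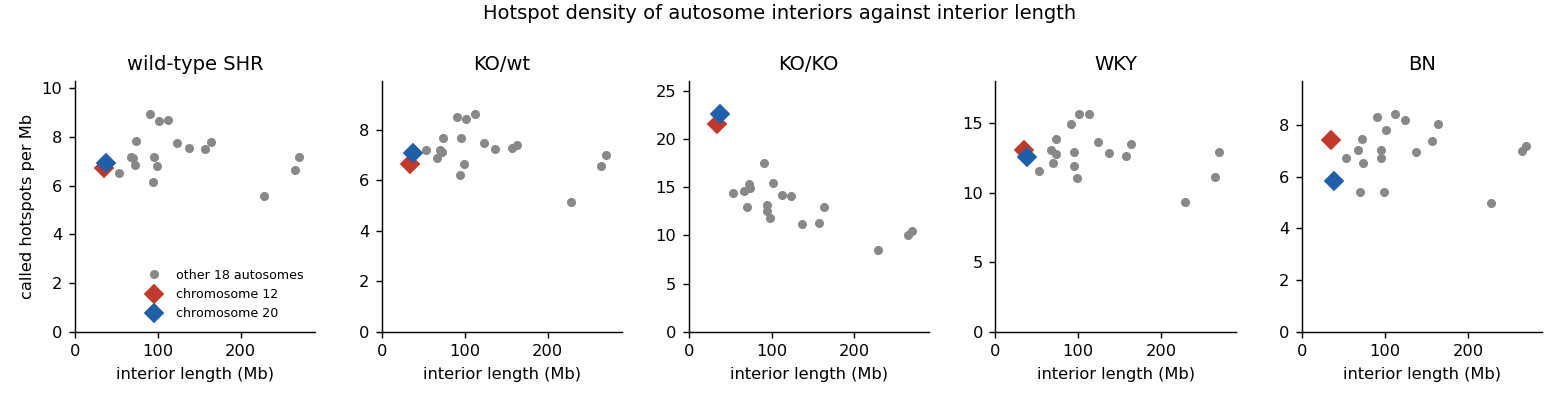
Called hotspots per Mb (y axis) against interior length in Mb (x axis) for the 20 autosomes in each library, with diamonds for chromosomes 12 and 20 and grey points for the other 18. In KO/KO, both diamonds lie above every grey point (21.5 and 22.6 against at most 17.5), and in the other 4 libraries they lie among the grey points.

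Chromosomes 12 and 20 have the 2 shortest interiors, and knockout density went with length across the autosomes. Over the other 18 autosomes, Spearman's rho between interior length and density was -0.72 in KO/KO, compared with wild-type SHR at 0.08, KO/wt at -0.12, WKY at -0.10 and BN at 0.15. These points share a library and an assembly, and 18 chromosomes are few, so the coefficients are given as a description. A straight line through the KO/KO values of the other 18 on log scales, extended to the shorter interiors, gave 18.1 hotspots per Mb for chromosome 12 and 17.6 for chromosome 20. The observed densities were 1.19 and 1.28 times these values. Chromosome 10, which was not picked, lay above the same line by 0.35 on the log2 scale, chromosome 20 by 0.36 and chromosome 12 by 0.25. With occupied 1-Mb bins in place of length, the observed values were 1.20 and 1.28 times the line and chromosome 10 was at 1.24 times.

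Over all called hotspots, those of the pair were weaker than elsewhere in the 3 SHR libraries. Among the strongest 10000 autosomal hotspots of each library, scaled medians were 0.953 (0.883 to 1.02) in wild-type SHR, 0.979 (0.879 to 1.07) in KO/wt and 0.989 (0.933 to 1.08) in KO/KO. A cut on strength itself draws medians together, so these values cannot show that the difference ends among strong hotspots. The pair had fewer hotspots above the cut per Mb, with density ratios of 0.815 (0.708 to 0.933) in wild-type SHR and 0.782 (0.679 to 0.898) in KO/wt. That of KO/KO, which picked the pair, was 1.34. The median wild-type SHR strength was 64 on chromosome 12 and 64.5 on chromosome 20 against 73, scaled values of 0.877 (0.781 to 0.959) and 0.884 (0.795 to 1.01). These were the 2 lowest medians of the 20 autosomes, with chromosome 19 next at 0.897. KO/wt had medians of 63 and 55 against 73, scaled values of 0.863 (0.712 to 0.973) and 0.753 (0.671 to 0.863). Chromosome 20 was the lowest autosome in KO/wt, while chromosome 12 was level with chromosomes 18 and 19. KO/KO had medians of 53 and 58 against 66, scaled values of 0.803 (0.727 to 0.894) and 0.879 (0.818 to 0.939), and chromosome 12 was the lowest autosome there, just below chromosome 10 at 0.818. The KO/KO medians rest on the same calls as the density that picked the pair and are descriptions.

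WKY and BN differed from the other autosomes by less than counting error. WKY medians were 205 and 201.5 against 211, scaled values of 0.972 (0.863 to 1.10) and 0.955 (0.872 to 1.06). BN medians were 66 and 71 against 71, scaled values of 0.930 (0.859 to 1.03) and 1 (0.915 to 1.11). Chromosome 20 nevertheless had the lowest WKY median of the 20 autosomes and chromosome 12 the lowest BN median. With interiors that begin and end 5 Mb from the ends, the scaled BN median of the pair was 0.931 (0.889 to 0.986). WKY carries the Prdm9 allele of SHR, and a value past counting error in SHR and within it in WKY does not show that the strains differ. Over both chromosomes, the scaled median was 0.877 (0.822 to 0.945) in wild-type SHR, that of WKY was 0.962 (0.886 to 1.05), and these intervals overlap.

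Median strength also went with length in wild-type SHR and KO/wt. Spearman's rho between interior length and median strength over the other 18 autosomes came to 0.64 for wild-type SHR and 0.75 for KO/wt, against -0.33 for KO/KO, 0.29 for WKY and 0.25 for BN. The 4 shortest of the other autosomes, chromosomes 16 to 19, had scaled medians of 0.897 to 0.945 in wild-type SHR and 0.863 to 0.932 in KO/wt. Against these 4 chromosomes, the pair had a scaled median of 0.941 (0.882 to 1.01) for wild-type SHR, 0.892 (0.800 to 0.985) for KO/wt and 0.800 (0.757 to 0.857) for KO/KO. In wild-type SHR the pair was thus within counting error of the other short autosomes. In KO/wt it was below their pooled median, although chromosome 12 had the same median, 63, as chromosomes 18 and 19.

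**Figure D2:**
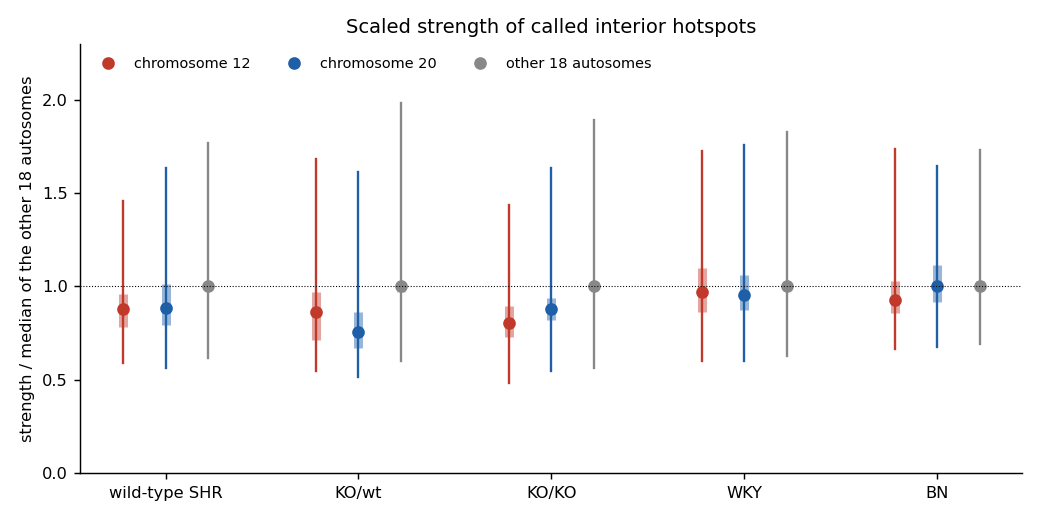
Scaled strength of called hotspots (y axis, 1 is the median of the other 18 autosomes) by library for chromosome 12, chromosome 20 and the other 18 autosomes. Points are medians, thick bars their 95% intervals and thin lines the quartiles, and the lowest point is chromosome 20 in KO/wt at 0.753.

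The summed strength of KO/KO hotspots per Mb was larger in the pair, which follows from the number of hotspots that picked it. The strengths of KO/KO hotspots added up to 1969 per Mb in the pair against 1256 elsewhere, a ratio of 1.57 that was smaller than the ratio of hotspot numbers. In the other libraries, the ratio of summed strength per Mb was 0.805 (wild-type SHR), 0.771 (KO/wt), 0.938 (WKY) and 0.865 (BN). Sums lean on few sites. The strongest 10% of KO/KO hotspots in the pair held 37.3% of the summed strength, compared with 35.1% elsewhere.

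The surplus of knockout hotspots was graded by strength, which is a description because the same calls picked the pair. All interior autosomal hotspots of a library were ranked by strength and cut into quintiles, from 1 for the weakest to 5 for the strongest. In KO/KO, the pair held 394, 355, 335, 277 and 234 hotspots in quintiles 1 to 5, and its density was 2.20, 2.03, 1.95, 1.56 and 1.31 times that of the other autosomes. Chromosome 12 went from 2.48 times in the weakest quintile to 1.13 times in the strongest, and chromosome 20 from 1.94 to 1.48 times. The density ratios of wild-type SHR and KO/wt were also lower in the strongest quintile than in the weakest, as given below. Among the strongest 100 interior KO/KO hotspots, 3 lay in the pair, and among the strongest 1000 there were 43, or 4.3%, against 5.43% of all interior KO/KO hotspots. The pair makes up 3.08% of the interior length of the 20 autosomes.

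Strong hotspots were fewer in the other 2 SHR libraries. In the strongest quintile, the density ratio of the pair was 0.757 (0.597 to 0.946) for wild-type SHR and 0.663 (0.514 to 0.843) for KO/wt. In the weakest quintile, the ratios of the pair were 1.16 (0.964 to 1.39) for wild-type SHR and 1.24 (1.03 to 1.48) for KO/wt. The KO/wt value includes sites also called in KO/KO, which were weak in KO/wt, with a median strength of 40. Their number depends on the density that picked the pair, so the KO/wt value in this quintile is a description. WKY stayed within counting error of 1 in all 5 quintiles, from 0.926 to 1.12. In BN, quintile 4 was low at 0.773 (0.610 to 0.966) and the other 4 quintiles were within counting error of 1.

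**Figure D3:**
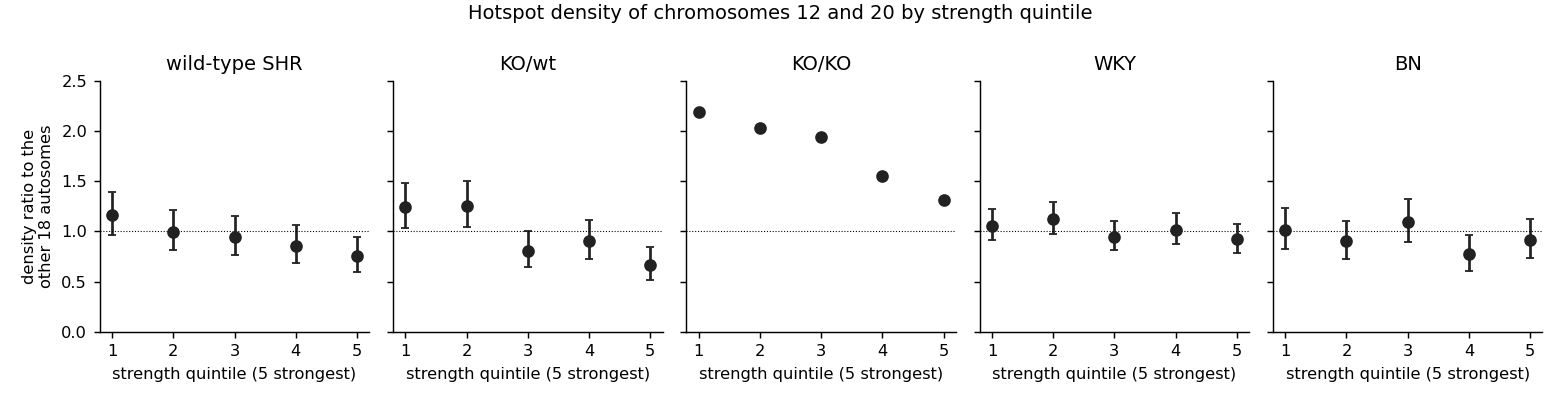
Ratio of hotspot density in the pair to that in the other 18 autosomes (y axis) by quintile of strength (x axis) in each library, with 95% counting intervals, which are left out for KO/KO because its density picked the pair. The KO/KO ratio falls from 2.20 to 1.31, and the KO/wt ratio from 1.24 to 0.663.

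Most of the 3055 windows were called in a single library. That held for 2474 windows, or 81.0%, against 75.2% in the other autosomes, while 243 were called in 2 libraries, 327 in 3, 11 in 4 and none in all 5. The largest class was called in KO/KO alone, with 1501 windows, which is 94.1% of KO/KO hotspots in the pair (94.6% elsewhere). Picking the pair for its many KO/KO hotspots thus raises its share of windows called in a single library, and that share is a description. Next came 458 windows called in BN alone, 457 in WKY alone, and 314 in wild-type SHR, KO/wt and WKY together, the libraries with the SHR allele of Prdm9.

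Wild-type SHR and WKY had many called hotspots in common. Of the wild-type SHR hotspots in the pair, 434 of 493, or 88.0% (84.9 to 90.6%), were also called in WKY, against 90.3% elsewhere. Without windows that overlap another window, where 1 site may be listed under different windows, the share was 93.2% (90.3 to 95.3%) against 93.8%. In the other direction, 46.9% (43.7 to 50.1%) of WKY hotspots were called in wild-type SHR, against 51.6% elsewhere. Among windows called in both strains, the median ratio of WKY to wild-type SHR strength was 4.86 (4.60 to 5.15), against 4.36 elsewhere. Of the BN hotspots in the pair, 4 (0.842%, against 1.75% elsewhere) were called in wild-type SHR, 8 (1.68% against 2.84%) in WKY and 9 (1.90% against 0.923%) in KO/KO. The last share depends on the KO/KO density that picked the pair. Taken as a share of KO/KO hotspots, these 9 windows made up 0.564% (0.297 to 1.07%) against 0.529% elsewhere, a difference within counting error.

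Fewer wild-type SHR hotspots were called with a single functional copy than elsewhere. KO/wt called 361 of the 493 wild-type SHR hotspots, or 73.2% (69.2 to 76.9%), against 80.4%. The share was 77.1% (71.2 to 82.0%) on chromosome 12 and 69.8% (64.0 to 75.1%) on chromosome 20, and chromosome 20 had the lowest share of the 20 autosomes. The share depended on strength. In the weakest quintile of wild-type SHR strength it was 33.9% (26.1 to 42.6%) against 45.8%, and in the strongest it was 98.7% (93.2 to 99.8%) against 98.9%. Among sites called in both, the median ratio of KO/wt to wild-type SHR strength was 0.965 (0.915 to 1.01) in the pair and 1.06 elsewhere.

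KO/wt also carried knockout sites. Windows called in both KO/KO and KO/wt numbered 85 in the pair, 27 on chromosome 12 and 58 on chromosome 20, or 1.18 per Mb against 0.588 per Mb elsewhere, a ratio of 2.00 that rests on the KO/KO calls by which the pair was picked. They made up 17.1% of KO/wt hotspots against 8.34% elsewhere, and 21.7% on chromosome 20, shares that depend on the KO/KO density in the same way. Taken as a share of KO/KO hotspots, they made up 5.33% (4.33 to 6.54%) in the pair against 4.81%, a difference within counting error. The chromosomes stood on either side, with 3.64% (2.52 to 5.25%) on chromosome 12 and 6.79% (5.29 to 8.68%) on chromosome 20. KO/wt hotspots that were not called in KO/KO had a median strength of 66 (60 to 77) against 78, and those that were had a median of 40 in the pair and elsewhere.

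Strong knockout sites were the ones called in KO/wt. In quintiles 1 to 4 of KO/KO strength, 22 sites of the pair were called in KO/wt, with at most 2.17% of a quintile. In the strongest quintile, 63 of 234 were, or 26.9% (21.7 to 33.0%), against 18.1% (17.1 to 19.1%) elsewhere. The share in that quintile was 34.8% (27.3 to 43.0%) on chromosome 20, the highest of the 20 autosomes, followed by chromosome 19 with 30.3%, and 15.6% (9.70 to 24.2%) on chromosome 12, below the other autosomes' median of 18.7%. Median KO/KO strength in this quintile was 238.5 on chromosome 20, also the highest of the 20, and 223 on chromosome 12, against 221 elsewhere. At shared sites, KO/wt strength was 0.147 (0.118 to 0.172) of KO/KO strength by the median ratio, compared with 0.155 elsewhere.

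**Figure D4:**
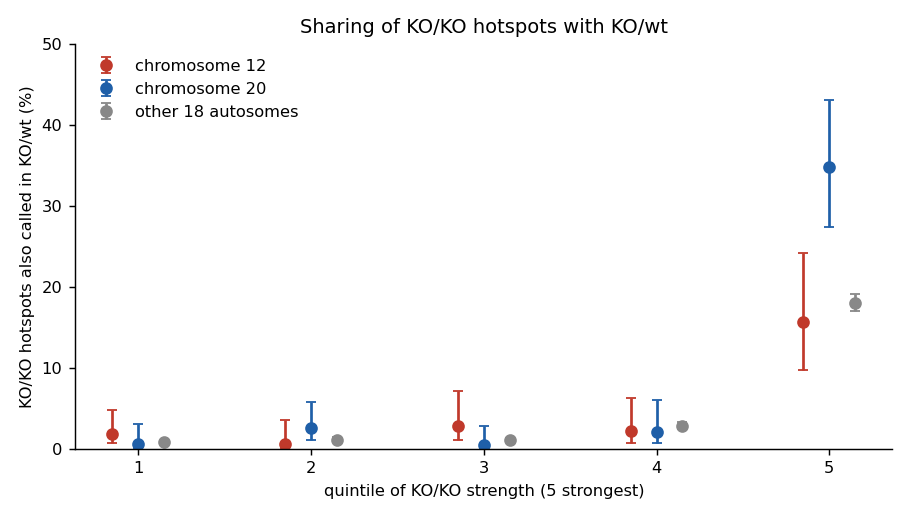
Percent of KO/KO hotspots also called in KO/wt (y axis) by quintile of KO/KO strength (x axis) for chromosome 12, chromosome 20 and the other 18 autosomes, with Wilson 95% intervals. The strongest quintile stands at 15.6%, 34.8% and 18.1%, and quintiles 1 to 4 stay under 3%.

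Single windows show the range of these classes. The strongest KO/KO hotspot of the pair, chr20:33920826-33923826, reached 1467 in KO/KO and 244 in KO/wt. Wild-type SHR was also called there, with 31, but WKY with 109 and BN with 1 were not. It ranked 5 among 29378 interior KO/KO hotspots, and its scaled strength was 22.2. On chromosome 12, the strongest was chr12:35060222-35063222, with 721 in KO/KO and 72 in KO/wt, both called, and 19, 36 and 6 in wild-type SHR, WKY and BN. Its rank was 113. Both sites kept a called level in KO/wt at a fraction of the KO/KO strength.

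Of the windows called in KO/KO and KO/wt alone, 18 lay on chromosome 12 and 49 on chromosome 20. The next strongest on chromosome 12, chr12:15699877-15702877, had 714 in KO/KO and 67 in KO/wt, with wild-type SHR at 5, WKY at 36 and BN at 22. On chromosome 20, chr20:35137754-35140754 had 701 in KO/KO and 62 in KO/wt, and chr20:34492314-34495314 had 671 and 63, with wild-type SHR at 14 and 0. These 4 sites had near-equal KO/wt strengths of 62 to 72.

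Hotspots of the SHR allele showed the reverse. The strongest wild-type SHR hotspot on chromosome 12, chr12:14314484-14317484, had strengths of 556 (wild-type SHR), 944 (KO/wt) and 1189 (WKY), while KO/KO stood at 6 and BN at 5. Its counterpart on chromosome 20, chr20:28070379-28073379, had 521, 963 and 1226, while KO/KO stood at 3 and BN at 13. At both sites KO/wt exceeded wild-type SHR, and both libraries were scaled by the same median of 73. Over the pair, the median ratio of KO/wt to wild-type SHR strength was 0.965 (0.915 to 1.01), within counting error of 1. That ratio was 1.01 on chromosome 12 and 0.93 on chromosome 20. The highest ranks among interior wild-type SHR hotspots were 123 on chromosome 12 and 152 on chromosome 20. Of the strongest 1000, 18 lay in the pair, or 1.8%, against 2.92% of all interior wild-type SHR hotspots.

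The strongest WKY and BN hotspots were less evenly shared. On chromosome 12, chr12:13627467-13630467 had a WKY strength of 2871, with wild-type SHR at 522 and KO/wt at 492. On chromosome 20, chr20:11089377-11092377 had a WKY strength of 1817, with wild-type SHR at 46 and called, and KO/wt at 15 and not called. The strongest BN sites, chr12:31902120-31905120 with 747 and chr20:13315825-13318825 with 723, were called in BN alone. The latter overlaps another window and had 230 in WKY.

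Some windows were called in wild-type SHR, KO/wt, KO/KO and WKY. They numbered 6 on chromosome 12 and 1 on chromosome 20, or 0.229% of the windows of the pair against 0.177% elsewhere. The strongest of them in KO/KO, chr12:10836179-10839179, had strengths of 113 (KO/KO), 77 (KO/wt), 28 (wild-type SHR) and 127 (WKY). At chr12:14435085-14438085 these were 83, 42, 48 and 284, and at chr12:11773367-11776367, which overlaps another window, 72, 221, 142 and 169. The one on chromosome 20, chr20:42509069-42512069, had 37, 24, 83 and 83.

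Knockout hotspots were spread unevenly along both chromosomes, and also along the other autosomes. Over full 2-Mb bins, the variance of KO/KO counts was 9.66 times their mean on chromosome 12 and 11.1 times on chromosome 20. In the other 18 autosomes, pooled and with empty bins kept, it was 10.7 times. In full 2-Mb bins counted from the start of each interior, the pair had a median of 41 KO/KO hotspots and a range of 1 to 91 over 35 bins, whereas the 1129 bins of the other autosomes had a median of 23 and at most 73. Bins with at least 46, which is 2 times that median, numbered 7 of 17 on chromosome 12 and 6 of 18 on chromosome 20, against 11.9% of all such bins, and 28 of the 35 were above the median of 23. These KO/KO bin counts follow from the density that picked the pair and are descriptions. In wild-type SHR, KO/wt, WKY and BN no bin of the pair reached 2 times the median of the other autosomes, and few bins did elsewhere (6, 8, 1 and 40 of 1129). Wild-type SHR bins had a median of 14 and a range of 0 to 28, close to the 15 of the other autosomes.

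On chromosome 12, KO/KO hotspots peaked at 75 (59.0 to 94.0) in the bin from 40 to 42 Mb and at 71 from 14 to 16 Mb. The low point was the bin from 22 to 24 Mb, with 14 windows in all, 1 KO/KO hotspot, none in wild-type SHR or KO/wt, 10 in WKY and 3 in BN. When the bins were begun at 11 Mb, the lowest bin held 11 KO/KO hotspots. A second poor bin, from 36 to 38 Mb, had 16 KO/KO, 2 wild-type SHR, 1 KO/wt, 12 WKY and 4 BN hotspots. Hotspots of the SHR allele peaked elsewhere, with 27 wild-type SHR, 24 KO/wt and 41 WKY hotspots from 16 to 18 Mb, where KO/KO had 33. BN was highest from 38 to 40 Mb with 25.

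Chromosome 20 had its knockout hotspots crowded from 20 to 26 Mb. Successive bins there held 70, 91 (73.3 to 112) and 71 KO/KO hotspots, and the bin from 10 to 12 Mb held 75. The next bin after the crowded stretch, from 26 to 28 Mb, held 12 (6.20 to 21.0), the fewest on the chromosome, together with 17 wild-type SHR and 30 WKY hotspots. From 28 to 30 Mb the counts were close to each other, with 31 KO/KO, 28 wild-type SHR, 26 KO/wt and 32 WKY hotspots, the highest bin of the chromosome for both wild-type SHR and KO/wt. WKY was highest from 12 to 14 Mb with 36 and BN from 10 to 12 Mb with 24. The densest Mb on the chromosome, from 21516795 to 22516795, held 59 KO/KO, 9 wild-type SHR and 13 KO/wt hotspots. In the other 18 autosomes the densest Mb, on chromosome 13, held 52.

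**Figure D5:**
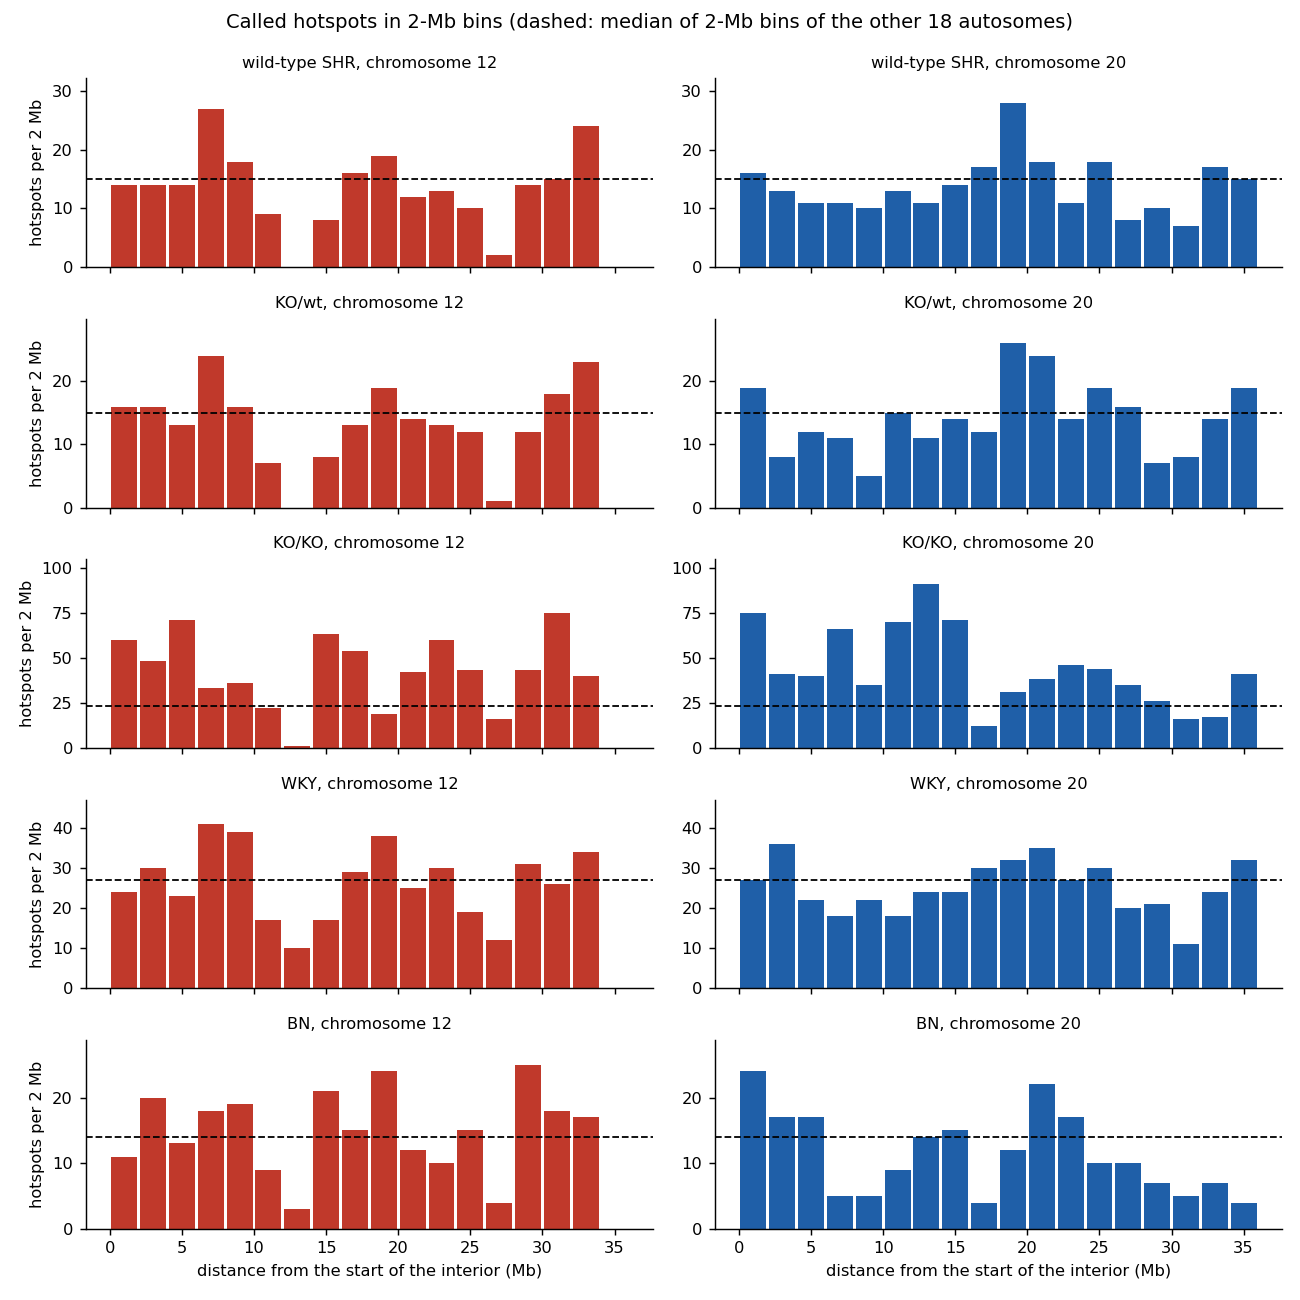
Called hotspots per full 2-Mb bin (y axis) against distance from the start of the interior in Mb (x axis) on chromosome 12 (left) and chromosome 20 (right) for the 5 libraries, with a dashed line at the median of the bins of the other 18 autosomes. KO/KO bars rise to 75 and 91 against a dashed line at 23, and they do not follow the bars of wild-type SHR, whose dashed line is at 15.

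Bins rich in knockout hotspots were not the bins rich in hotspots of the SHR allele. Spearman's rho between KO/KO and wild-type SHR counts was 0.10 over 17 bins of chromosome 12 and 0.04 over 18 bins of chromosome 20. Within the other 18 autosomes, over bins with at least 1 window, rho ranged from -0.29 on chromosome 10 to 0.78 on chromosome 13, with a median of 0.49, and 1 of the 18 was below both chromosomes of the pair. Between wild-type SHR and WKY, rho was 0.89 and 0.74, and between wild-type SHR and KO/wt it was 0.90 and 0.71. Between BN and KO/KO it was 0.23 and 0.48, against a median of 0.62 elsewhere. Bins of a chromosome share the library and the mappable sequence, so these values are descriptions.

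Spacing followed the density that picked the pair and is given as a description. The median distance between neighbouring starts was 21.0 kb in KO/KO in the pair against 33.6 kb elsewhere, and 26.0% of neighbours were under 10 kb apart, against 17.3%. Relative to the mean distance, the median was 0.463 in the pair and 0.415 elsewhere. The mean elsewhere includes the long window-free stretches given above, with distances of up to 65434 kb against 2195 kb in the pair, which lowers that ratio. In wild-type SHR the median distance was 90.8 kb against 79.2 kb, and 4.89% were under 10 kb, against 7.35%. Of the 3055 windows, 485, or 15.9% (14.6 to 17.2%), overlapped another window, against 16.9% elsewhere. Among KO/wt hotspots the share was 21.4% against 17.7%, and among wild-type SHR hotspots 19.1% against 16.7%.

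High knockout density was not limited to the interiors, which is a description because the chromosomes were picked for their many knockout hotspots. The last 10 Mb of chromosomes 12 and 20 had 24.7 and 25.7 KO/KO hotspots per Mb, against 18.1 in the last 10 Mb of the other 18 autosomes. The first 10 Mb had 16.6 and 18.6, against 10.5. Wild-type SHR had 9.1 and 10.3 per Mb in the last 10 Mb, against 8.49, and 4.9 and 3.3 in the first 10 Mb, against 6.59.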

How the data were processed

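DMC1 SSDS libraries of adult rat testis were used. Mapping by the authors was to rn5, with their own version of bwa 0.7.12. Their hotspot caller took single-stranded fragments of type 1 whose mates each had a unique position and a mapping quality over 30. The submitters' processing notes also name bedtools 2.23.0 and MACS2 2.1.0.20150420. The deposited table gives, for each window and library, a strength, taken as a score because its scale and normalization are not given in the sources used here, and a flag (1 or 0) for a call by the authors. All per-library columns of the table were used. How windows were merged is not given either. Total reads per library are not in the table, so the depth is unknown and calls of the libraries may differ in sensitivity. The H3K4me3 and input libraries and an rn5 genome were not used here, so that no window sequence or gene annotation is given.

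Windows were taken as interior by their start at the first limit and by their end at the last limit. Densities are called hotspots per Mb of interior, and the ratio to the other 18 autosomes has an exact conditional Poisson 95% interval. Single counts have exact Poisson intervals, shares have Wilson intervals and medians have binomial order-statistic intervals, whose ratio takes the other autosomes' median as fixed. Bins measured 2 Mb. With 1 library per condition no test between libraries or genotypes was run and no p-value is given. A window called in both libraries counted as shared. Named windows were the strongest of each library on each chromosome, those called in most libraries with KO/KO, the strongest called in KO/KO and KO/wt alone, and those at the limits. Named bins were those with the most hotspots of a library and the fewest of KO/KO. The second bins named on each chromosome, the bins from 20 to 30 Mb on chromosome 20 and the densest Mb were chosen after their values were seen. The members and lists were chosen with earlier results of these data known. Alternatives were other margins (5 and 15 Mb), the strongest 10000 hotspots, no overlapping windows, each chromosome alone, the 4 shortest other autosomes, occupied bins, means and shifted bins. Functions were tested on simulated data. Software was scipy 1.17.1, numpy 2.4.6 and pandas 2.3.3 under Python 3.11.15, with matplotlib 3.10.9 for plots.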

Additional observations from a re-analysis of the deposited data

How the results depend on the processing

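Of 101 values under an alternative, 84 lay inside the reported value's 95% interval (bin counts: within 1.5 times), 17 lay outside it, and none changed the direction of a value whose interval excluded 1. With the strongest 10000 autosomal hotspots of each library, the density ratio of wild-type SHR was 0.815, that of KO/wt 0.782 and that of KO/KO 1.34, and the scaled medians were 0.953, 0.979 and 0.989, with intervals that include 1. This choice removes weak hotspots, in which the knockout surplus was largest, and a cut on strength also draws medians together. Against the 4 shortest other autosomes, the KO/KO density ratio was 1.54, and the scaled median was 0.892 in KO/wt and 0.800 in KO/KO. Against the other autosomes without a window-free stretch over 10 Mb, a choice made after seeing the data, the KO/KO density ratio was 1.68. The BN density ratio was 1.06 on chromosome 12 alone and 0.831 on chromosome 20 alone. The percent of KO/KO hotspots also called in KO/wt was 3.64 on chromosome 12 alone, 6.79 on chromosome 20 alone, and 10.3 among hotspots at or above the median KO/KO strength. The percent of wild-type SHR hotspots also called in WKY was 93.2 without overlapping windows. The fewest KO/KO hotspots in a bin of chromosome 12 rose from 1 to 11 with bins begun at 11 Mb. Some density ratios had an interval that came to exclude 1. With a margin of 15 Mb these were 0.893 (0.799 to 0.995) in wild-type SHR and 0.877 (0.783 to 0.980) in BN. Against autosomes without a long window-free stretch they were 0.905 (0.825 to 0.990) and 0.900 (0.819 to 0.986). Per occupied 1-Mb bin they were 0.904 (0.825 to 0.989) and 0.898 (0.818 to 0.984). The others were wild-type SHR (0.708 to 0.933) and KO/wt (0.679 to 0.898) with the strongest 10000 hotspots, and BN on chromosome 20 alone (0.725 to 0.950). No paired analysis was possible because each condition had 1 library. Weak hotspots near the calling threshold limit every count here, since depth is unknown.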
